A study of Oryza sativa with 6 samples.

Results

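The laccases described here are 10 listed rice loci, represented by every probe on the array whose name begins with 1 of their identifiers. These loci had 14 probes, out of 42418 gene probes and 29690 loci on the array. The deposited files give no gene symbols, so the loci are named by identifier. Laccases are secreted copper enzymes that use oxygen to oxidise phenols. In the wall of a lignifying cell they turn monolignols into radicals, which then couple to the growing lignin polymer. Class III peroxidases do the same with hydrogen peroxide. In Arabidopsis, loss of several laccases together blocks lignification of the stem, and the conserved plant microRNA miR397 targets laccase transcripts. Plant genomes carry many laccase genes, and most are expressed in only some organs.

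The tissue was the mid-portion of the second internode counted from the top, from plants of the cultivar Nipponbare at heading. Wild-type plants were compared with plants in which OsCAld5H1, the coniferaldehyde 5-hydroxylase gene of the syringyl lignin branch, had been knocked out with CRISPR/Cas9. All plants came from a growth chamber. The knockout plants carried the single line name a-9-2, generation T2, so effects of that line and of the gene cannot be told apart. Each genotype had 3 biological replicates with 1 array each. One slide held every wild-type array and the other every knockout array, and effects of slide and of genotype cannot be told apart either. The tissue is bulk internode, in which fewer cells of a type and less RNA per cell cannot be told apart.

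Levels are log2 signals relative to the 75th percentile of the gene spots on the same array, so 0 is the level of that percentile. A level describes 1 probe across arrays and does not rank transcripts of different genes. Between 74.3% and 78.3% of gene spots per array were well above background, no gene spot was saturated, and the lowest signal well above background lay between -7.60 and -6.76. The number of arrays limits the precision. The probe of the targeted gene (Os10g0512400) read -0.54, -0.52 and -0.05 in wild-type replicates 1 to 3 and -4.00, -1.78 and -1.23 in knockout replicates 1 to 3. Every knockout value was below every wild-type value, but the difference of -1.97 ± 0.70 (SE) had a limma adjusted p of 0.205. Without knockout replicate 1 it was -1.14 (adjusted p 0.0651). That probe lies in the coding and 3′ end of the transcript and the position of the edit is unknown here, so it does not check the edit. Markers of the labelled tissue were present on all 6 arrays. They were the cellulose synthases CESA4, CESA7 and CESA9, which build secondary walls, and the stem homeobox genes OSH1 and OSH15. All 5 loci listed for green tissue were well above background on every array too. None of these 10 marker loci was called by limma between the genotypes, and 1 green tissue locus had an unadjusted p under 0.05.

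Of the 10 laccases, 4 were well above background on all 6 arrays: Os01g0842400, Os01g0842500, Os03g0273200 and Os11g0708100. These 4 accounted for 7 probes and were the laccases that could be tested. A further 4 were not well above background on any array (Os07g0101000, Os10g0346300, Os11g0641500 and Os11g0641800). The last 2, Os01g0827300 and Os05g0458600, each reached it on 1 wild-type array. None of the 10 was well above background in the knockout alone.

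**Figure D1:**
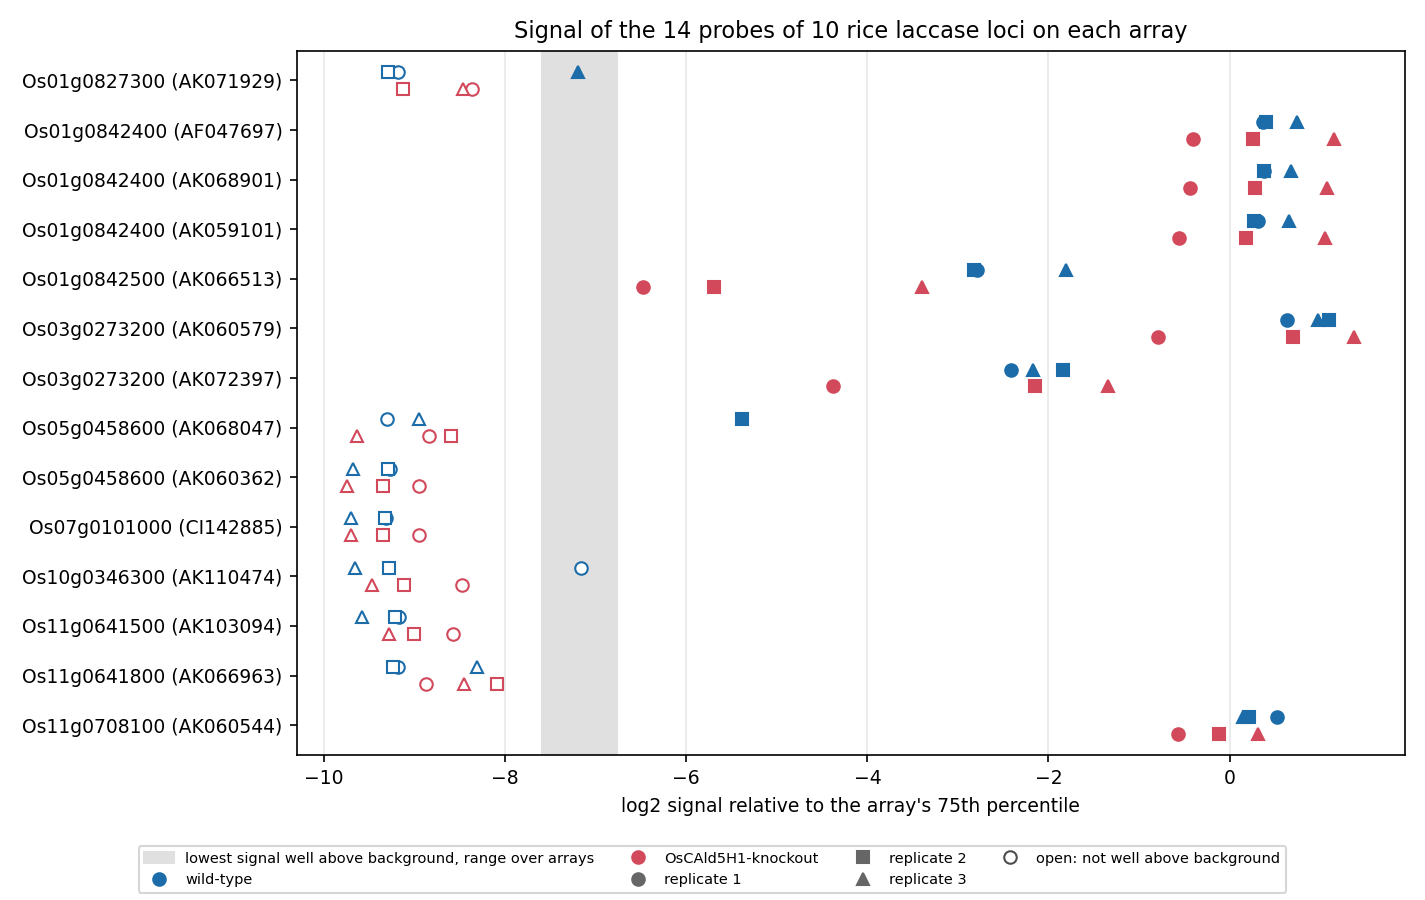
Each row is 1 probe, named by locus and transcript accession, and each point is 1 array, placed by its log2 signal relative to that array's 75th percentile. Filled points are well above background, and the grey band is the range over arrays of the lowest such signal (-7.60 to -6.76); the 4 expressed loci lie to its right on every array, and Os01g0842500 is the single one whose genotypes do not overlap.

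Os01g0842400 lies on chromosome 1 and has 3 probes. Its brightest probe (AF047697) read 0.37, 0.40 and 0.75 in wild-type replicates 1 to 3. In knockout replicates 1 to 3 it read -0.41, 0.26 and 1.15. The knockout arrays therefore lay on both sides of the wild-type arrays, with the lowest and the highest value of all 6. The other probes, AK068901 and AK059101, put the arrays of each genotype in nearly the same places, from 0.27 to 0.68 in wild-type and from -0.56 to 1.07 in knockout. All 3 probes differed little between genotypes, by -0.17, -0.17 and -0.19 with limma adjusted p values of 0.847, 0.838 and 0.839. The 95% interval of the brightest probe ran from -1.11 to 0.76.

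Os01g0842500 has the next identifier in use on chromosome 1 among the listed laccases, and 1 probe (AK066513). It read -2.79, -2.82 and -1.81 in wild-type replicates 1 to 3 and -6.48, -5.69 and -3.40 in knockout replicates 1 to 3. All knockout values were below all wild-type values, with a gap of 0.58 between the lowest wild-type and the highest knockout array. Before scaling, the spot signal was 206, 220 and 452 in wild-type and 16.9, 30.8 and 146 in knockout arrays. The -6.48 of knockout replicate 1 was near the lowest signal well above background on that array, -6.76, so the fold below rests partly on a dim value. The wild-type mean was -2.47 ± 0.57 and the knockout mean -5.19 ± 1.60 (SD, n = 3 each), which is 6.58-fold lower. The log2 difference was -2.72 ± 0.79 (SE), with a 95% interval from -4.64 to -0.80. Its unadjusted limma p was 0.0132 and its adjusted p 0.142, above the 0.05 used as the threshold throughout.

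The knockout arrays of Os01g0842500 ranged over 8.43-fold and the wild-type arrays over 2.01-fold. Without knockout replicate 3, the array nearest to wild-type, the difference was -3.61 and was called (adjusted p 0.0254). Without any other single array it was not, with differences from -2.89 to -2.07. Another setting took the median spot signal, normexp background correction with an offset of 50, which shrinks differences of dim probes, and quantile normalisation. With these changes together the difference was -1.64 (adjusted p 0.111).

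**Figure D2:**
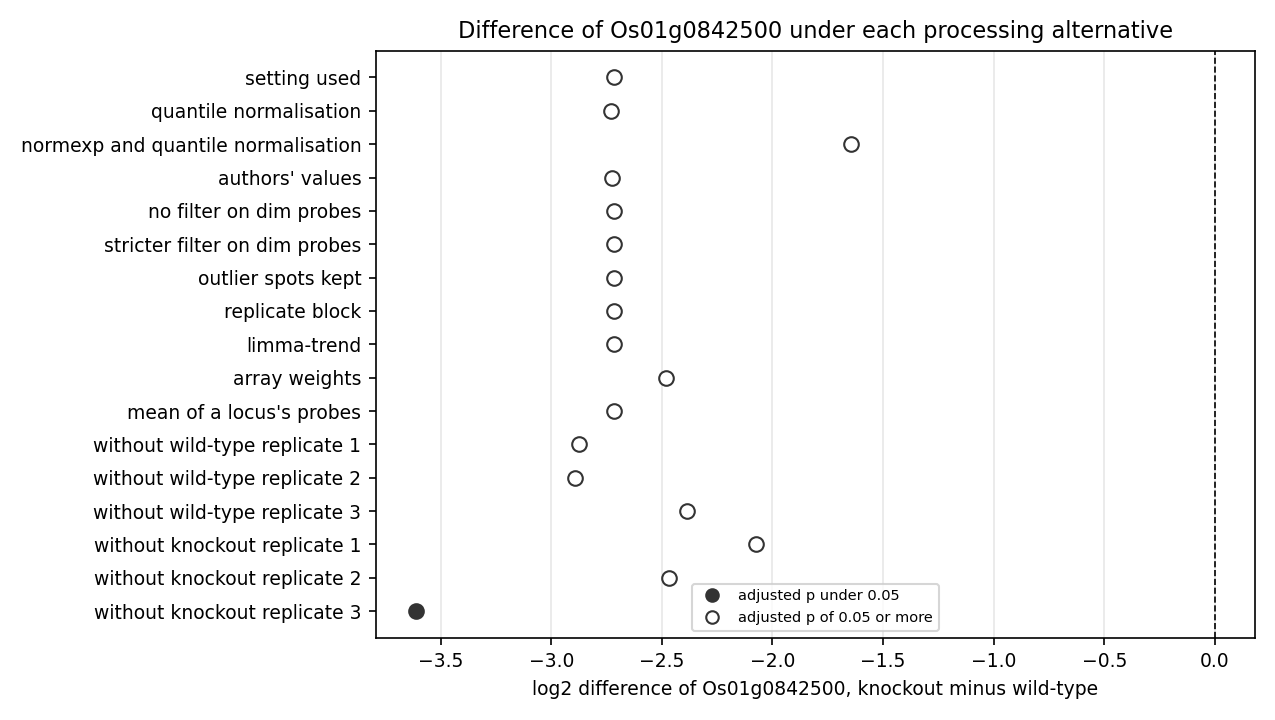
Each row is 1 way of processing the arrays, and the point gives the log2 difference of Os01g0842500, knockout minus wild-type. The difference stayed below 0 throughout, from -3.61 to -1.64, and only the fit without knockout replicate 3 gave an adjusted p under 0.05 (filled point).

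The contrast between these neighbouring loci was then set out within each array, which needs no scaling between arrays. The log2 signal of Os01g0842400 exceeded that of Os01g0842500 by 3.16, 3.22 and 2.55 in wild-type and by 6.07, 5.95 and 4.55 in knockout arrays. The size of this excess depends on both probes, so only its change between arrays can be read. It was larger in all 3 knockout arrays than in any wild-type array, and its mean differed by 2.55. This pair was singled out after its values were seen, so the contrast is a description and no p is given for it.

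Os03g0273200, on chromosome 3, has 2 probes annotated to different transcripts of the locus. The brighter (AK060579) read 0.63, 1.10 and 0.98 in wild-type and -0.79, 0.70 and 1.38 in knockout replicates 1 to 3. The dimmer (AK072397) read -2.41, -1.84 and -2.18 in wild-type and -4.38, -2.15 and -1.34 in knockout replicates 1 to 3. On both probes knockout replicate 1 was the lowest array and knockout replicate 3 the highest, so the genotypes overlapped. The differences were -0.48 ± 0.53 and -0.48 ± 0.75 (SE), with limma adjusted p values of 0.676 and 0.769. The 95% interval of the brighter probe ran from -1.77 to 0.82, which includes 0.

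Os11g0708100, on chromosome 11, has 1 probe (AK060544). It read 0.53, 0.22 and 0.15 in wild-type and -0.57, -0.12 and 0.32 in knockout replicates 1 to 3. Knockout replicates 1 and 2 were below every wild-type array and knockout replicate 3 lay among them. The difference was -0.42 ± 0.25 (SE), a 1.34-fold difference with a 95% interval from -1.02 to 0.18 and a limma adjusted p of 0.411.

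As a group, 0 of the 4 tested laccases were called by limma, against 3.41% of the 21799 loci tested (473 higher and 270 lower in the knockout). An unadjusted p under 0.05 was found at 1 of the 4 and at 4281 of all tested loci, or 19.6%. All 4 differences were below 0, from -2.72 to -0.17, with a median of -0.45 against 0.0014 over all tested loci. Only Os01g0842500 had no overlap between the genotypes and was lower in the knockout, which held for 13.6% of all tested loci. The shared sign was lost with 1 array left out. Without knockout replicate 1, Os01g0842400 differed by 0.20 and Os03g0273200 by 0.13, and the median was -0.03.

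**Figure D3:**
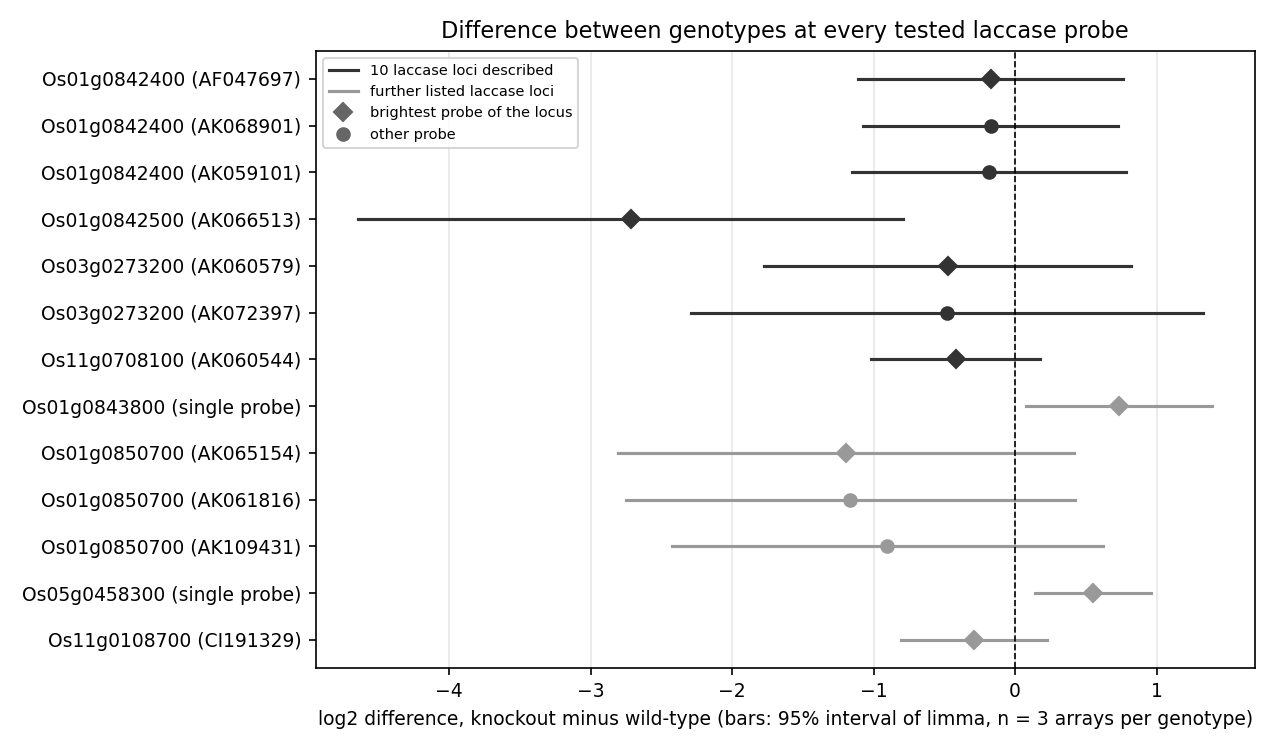
Points are log2 differences, knockout minus wild-type, at each tested laccase probe, and bars are 95% intervals from limma with 3 arrays per genotype. Probes of the same locus lie close together. Among the 4 expressed members the interval excludes 0 at Os01g0842500 (-2.72) alone. The interval of Os01g0843800 is not read as a test, since that locus passed the filter through the knockout alone.

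The knockout arrays were spread widely at these 4 laccases. The median SD of the 4 loci was 0.23 over wild-type and 0.95 over knockout arrays, against 0.13 and 0.25 over all tested loci. It was 0.34 and 0.33 over the tested loci of a further laccase list described below, most of which were dim. The brightest of them, Os01g0850700, had an SD of 0.61 over wild-type and 1.28 over knockout arrays. The wide spread was thus not confined to the 4 laccases. At the dim loci Os01g0843800, Os05g0458300 and Os11g0108700 the SD over knockout arrays was 0.41, 0.11 and 0.24. Relative to the wild-type mean, knockout replicate 1 stood at -0.91 for Os01g0842400, -4.00 for Os01g0842500, -1.70 for Os03g0273200 and -0.87 for Os11g0708100. Knockout replicate 3 stood at 0.64, -0.93, 0.48 and 0.02 for the same loci. Knockout replicate 1 was the lowest of the 6 arrays at all 4 laccases, which was so at 23.6% of all tested loci. Within the knockout, replicate 1 was the lowest and replicate 3 the highest at all 4, against 19.5% of all loci.

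The secondary wall cellulose synthases moved with the laccases in that array. Knockout replicate 1 stood at -0.40 for CESA4, -0.50 for CESA7 and -1.50 for CESA9 relative to the wild-type mean. Knockout replicates 2 and 3 stood at 0.33 and 0.43 for CESA4, 0.22 and 0.34 for CESA7, and 0.08 and 0.29 for CESA9. For the brightest probes of Os01g0842400, Os03g0273200 and the 3 synthases, knockout replicate 1 was thus below every wild-type array and knockout replicate 3 above. Of 3 CESA4 probes, AK105078 differed from this: it read 1.51 in knockout replicate 1 and -0.30 in knockout replicate 3, its lowest array, against 1.83 to 2.29 in wild-type. Os01g0842500 did not share this pattern, since knockout replicates 2 and 3 were also below wild-type there. Across all tested probes knockout replicate 1 correlated with replicates 2 and 3 at 0.972 and 0.968, while those correlated with each other at 0.984; probes are not independent replicates. Whether that array differed in cell make-up, RNA quality or handling was not tested.

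**Figure D4:**
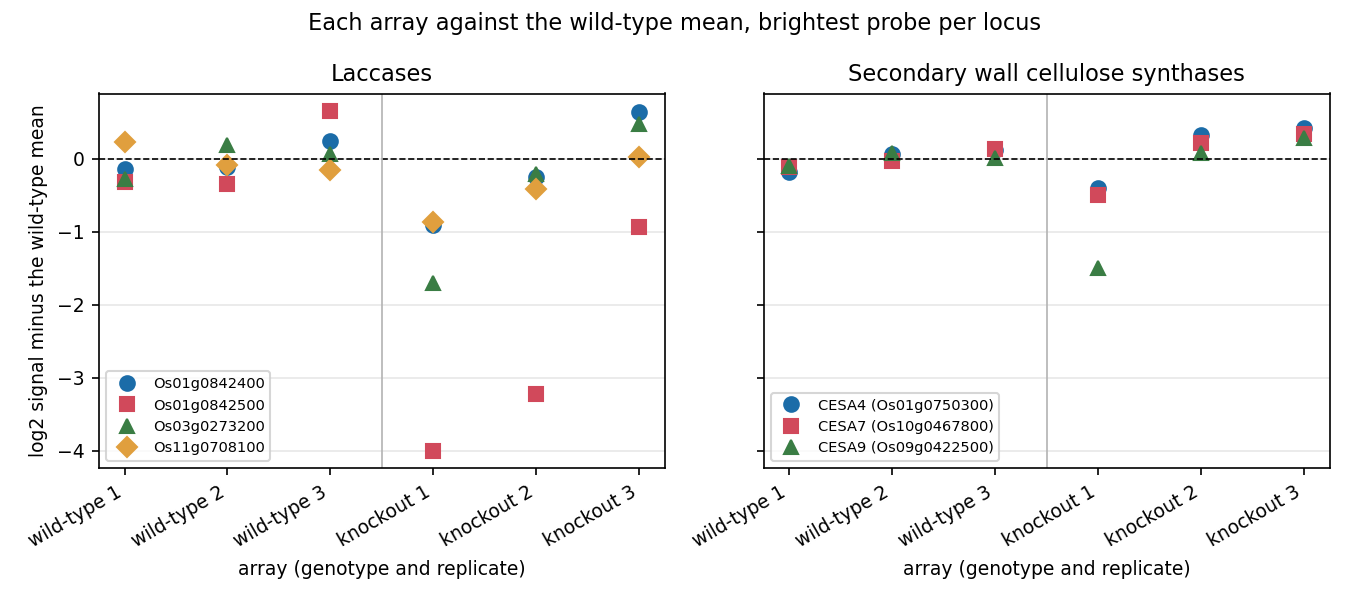
Points are the log2 signal of 1 locus on 1 array minus the mean of the 3 wild-type arrays, for 4 laccases (left) and 3 secondary wall cellulose synthases (right). Each locus is shown by its brightest probe, and knockout replicate 1 is the lowest array of every probe shown, down to -4.00 for Os01g0842500 and -1.50 for CESA9.

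The nearest profile to each laccase was taken among 44 other loci, namely the other expressed laccases and the listed lignin, wall and tissue marker loci on all 6 arrays. Nearness was the root mean square difference of log2 values after each locus was centred on its own mean over 6 arrays. For Os01g0842500 it was the targeted gene OsCAld5H1, at 0.68 against an SD of 1.84 of the laccase itself. For Os03g0273200 it was CESA9, at 0.18 against 0.76. For Os01g0842400 it was the 4-coumarate:CoA ligase locus Os08g0448000, at 0.22 against 0.52. For Os11g0708100 it was the cinnamoyl-CoA reductase locus Os08g0441500, at 0.26 against 0.39. Values were not scaled by their spread, so this measure favours loci whose signal varied by a like amount. With 6 arrays, of which knockout replicate 1 stood apart, these are descriptions.

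The 6 laccases that could not be tested had 7 probes, and 2 of their 42 values were well above background. Os01g0827300 (chromosome 1, AK071929) read -7.19 in wild-type replicate 3, at the edge of detection, and between -9.29 and -8.36 on the other arrays. Os05g0458600 (chromosome 5) read -5.38 in wild-type replicate 2 at probe AK068047, a spot signal of 37.2 against 1.93 to 4.08 on the other arrays. Its other probe, AK060362, was at -9.29 on that same array and not well above background on any.

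The remaining untested loci showed no value well above background. Os07g0101000 (chromosome 7) ranged from -9.70 to -8.95 and Os10g0346300 (chromosome 10) from -9.66 to -7.16. That -7.16, in wild-type replicate 1, did not reach the status, although the lowest signal well above background on that array was -7.18. The neighbours Os11g0641500 and Os11g0641800 on chromosome 11 ranged from -9.58 to -8.58 and from -9.24 to -8.09. At this signal their transcripts were not detectable, and values at the floor have no order between genotypes.

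A further 17 loci were listed from prior knowledge of the rice laccase family, which neither the files nor the reference table annotate. Of these, 11 had a probe by name and 4 passed the filter on dim probes. Os01g0843800 passed it through the knockout alone, so its p is not counted. Among the rest, 0 were called by limma (lowest adjusted p 0.158), against 3.41% of all tested loci. Of the same loci, an unadjusted limma p under 0.05 was found at Os05g0458300 alone, against 19.6% of all tested loci. Os01g0850700 was the brightest of the 4, and its 3 probes put the 6 arrays in the same order (differences of -1.20, -1.16 and -0.90). Its brightest probe read 2.14, 1.70 and 0.94 in wild-type and 1.88, -0.38 and -0.31 in knockout replicates 1 to 3. Here knockout replicate 1 lay among the wild-type arrays and knockout replicates 2 and 3 were low, unlike at the 4 laccases above. The difference was -1.20 ± 0.66 (SE, adjusted p 0.389), and without knockout replicate 1 it was -1.94 (adjusted p 0.0520).

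The other 3 tested loci of that list were dim. Os05g0458300 had means of -5.41 ± 0.28 for wild-type and -4.86 ± 0.11 for the knockout (SD, n = 3, limma adjusted p 0.158). Os11g0108700 was at -3.77 ± 0.33 and -4.06 ± 0.24 (adjusted p 0.513). Os01g0843800 reached detection on the 3 knockout arrays alone. Its knockout mean was 1.33-fold higher than a wild-type bound. It passed the filter through the knockout alone, so no p is given for it. The bound sets the knockout mean against the lowest signal well above background on each wild-type array, or the probe's own value where higher. Undetected probes can read above that signal, so the bound is no upper limit and the fold is a description. The measured means were -7.66 (wild-type) and -6.92 (knockout). This locus was named after its values were seen.

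The array also carries probes named for microRNAs, and 3 families known to target copper proteins were examined: miR397, whose targets are laccases, miR408, which in Arabidopsis targets laccases and plantacyanin, and miR528 of grasses, known for targeting an ascorbate oxidase in rice. Each has probes named 5′, 3′ and Mature, and the files do not say which RNA, hairpin precursor or mature form, each reports. None of the 6 probes to osa-miR397a and osa-miR397b was well above background on any array, with levels from -9.85 to -8.22. No miR397 signal was detectable in either genotype.

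Of the osa-miR408 probes, 2 were tested and both rose in the knockout. The 3′ probe read -2.32, -2.34 and -2.41 in wild-type and -1.38, -1.39 and -1.42 in knockout replicates 1 to 3. The probe named Mature read -4.25, -4.28 and -4.33 in wild-type and -3.54, -3.44 and -3.37 in knockout replicates 1 to 3. On both, the genotypes were well separated and the arrays of each nearly coincided. The differences were 0.96 ± 0.10 and 0.84 ± 0.10 (SE), or 1.95-fold and 1.79-fold, with limma adjusted p values of 0.0114 and 0.0191. The 5′ probe was at the edge of detection and was not tested.

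Other microRNA probes rose too. Of 112 tested microRNA probes, 22 rose in the knockout, or 19.6%, and 4 fell. Over all 32134 tested probes, these included, 600 rose, or 1.87%, and 416 fell. Control probes of the array were described without a test: of the 5 well above background on all 3 arrays of a genotype, 4 were higher in the knockout, namely POsControl0021 by 1.54, POsControl0001 by 0.56, POsControl0016 by 0.52 and PZmControl0003 by 0.30, and POsControl0005 differed by -0.45. Their part in the miR408 values was not tested. The 3′ call ended without wild-type replicate 1 (adjusted p 0.0711), 2 (0.0638) or 3 (0.0834), and that of the Mature probe without those arrays (0.0945, 0.0904 and 0.108) or without knockout replicate 2 (0.0591), while the differences stayed between 0.81 and 0.98. With the replicate number as a block the adjusted p values were 0.0523 and 0.0731.

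Probes to osa-miR528 leaned the other way. The 3′ probe read 0.87, 0.32 and 0.08 in wild-type and -1.62, -0.47 and -0.50 in knockout replicates 1 to 3. The 5′ probe read -0.03, -0.61 and -0.89 in wild-type and -2.66, -1.40 and -1.46 in knockout replicates 1 to 3. The genotypes did not overlap on either probe, with the knockout lower. This held for 13.6% of all tested loci, among which microRNA probes were not counted. The differences of -1.29 ± 0.37 and -1.33 ± 0.40 (SE) did not pass (limma adjusted p 0.138 and 0.147). The Mature probe, well above background on 5 of 6 arrays, differed by -0.27 (adjusted p 0.714).

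**Figure D5:**
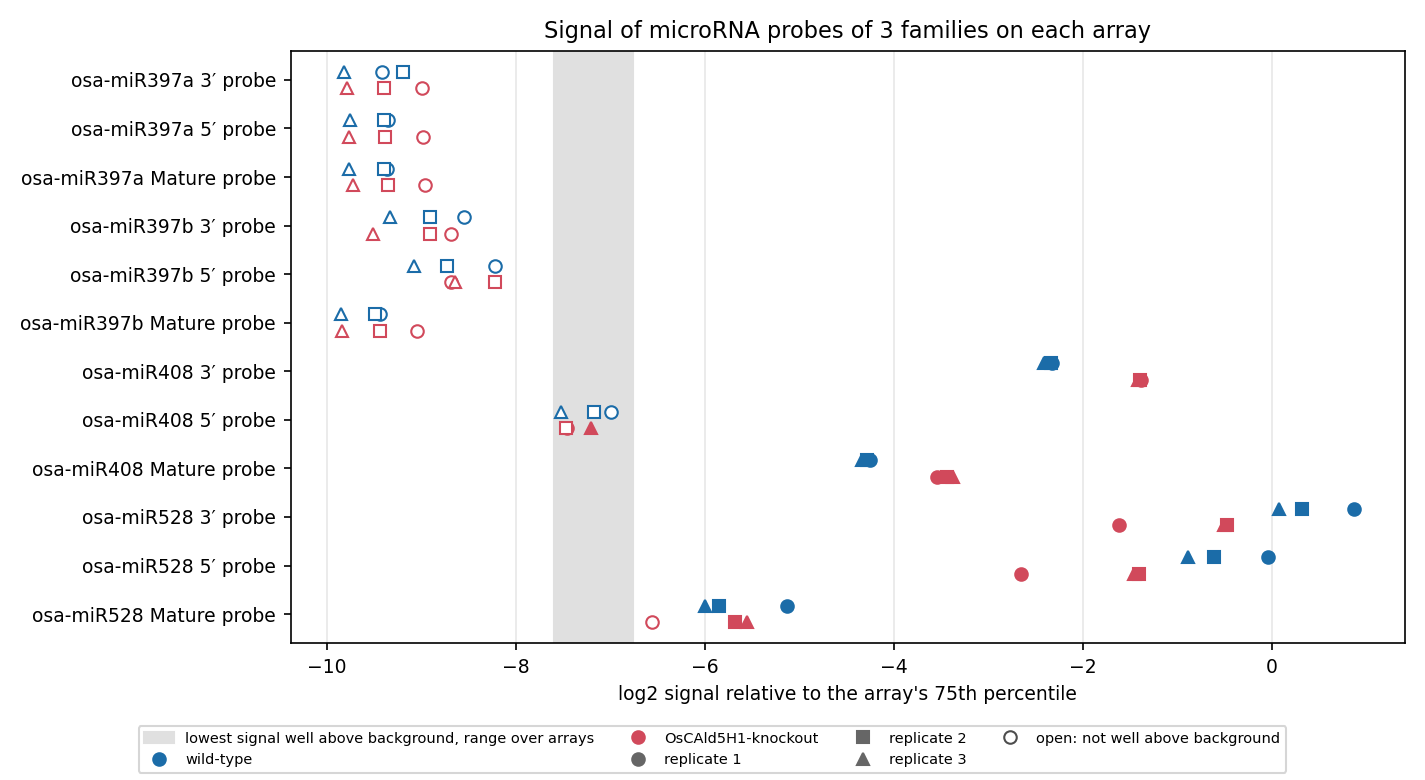
Each row is 1 microRNA probe and each point 1 array, placed by its log2 signal relative to that array's 75th percentile; filled points are well above background and the grey band is the range of the lowest such signal. All 6 miR397 probes lie left of the band, the 3′ and Mature miR408 probes are shifted to the right in the knockout, and the 3′ and 5′ miR528 probes are shifted to the left.

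The enzymes that supply laccases with monolignols were counted from a list of 35 loci, from phenylalanine ammonia-lyase to cinnamyl alcohol dehydrogenase. Of 29 tested loci, 1 rose, 0 fell and 28 did not pass, a share near the 3.41% called over all tested loci. The median difference was 0.08, with 11 loci lower and 18 higher. The locus that rose was Os03g0112900, listed as a coniferaldehyde 5-hydroxylase homologue, with means of -6.30 ± 0.05 for wild-type and -5.27 ± 0.18 for the knockout (SD, n = 3; limma adjusted p 0.0191). Its probe was dim. No monolignol locus was called after normexp with quantile normalisation or in the fit that blocks on replicate number. The same held with wild-type replicate 1, 2 or 3 left out.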

How the data were processed

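Total RNA of 6 samples was labelled with Cy3 and hybridised to 1-colour Agilent rice arrays, per the labels' protocols. Spot intensity in the deposited scanner files had its background subtracted and a spatial trend removed, per the file headers. The software was Feature Extraction 12.0.3.1, per the submitters' processing notes. The authors' deposited value table holds linear intensity: each column equalled the processed signal of its array times 1 constant (1.51 to 1.72), with column medians of 379, 379 and 376 (wild-type) and 388, 385 and 387 (knockout). It is uncentred, and the basis of the constants is unknown here. Here log2 processed intensity was taken minus the 75th percentile of each array's gene spots. The design's 590 control spots and 5 to 9 outlier spots per array were dropped; repeated spots were averaged per probe.

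A probe was tested where over 0.5 of its spots were well above background on all 3 arrays of at least 1 genotype. This left 32134 probes for limma 3.58.1 in R 4.3.3, with genotype as the single term, two-sided, and Benjamini-Hochberg adjustment over all of them; the threshold was an adjusted p under 0.05. The brightest probe over the 6 arrays stood for a locus. The labels call the samples biological replicates. A limma p sets the difference between genotypes against the spread between replicates, with the estimate of that spread drawing on all tested probes. It does not separate genotype from slide or line. The scripts were tested on simulated data.

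All 10 laccases are named whatever their values. Of the further laccases, called loci and the 3 brightest tested were to be named; of the monolignol loci, called ones; and for each expressed laccase the most alike listed locus. The members and the lists were chosen with earlier results of these data known. The further laccase and monolignol loci come from prior knowledge. The reference table (assembly ASM3414082v1) holds 12 genes with LAC names, but 0 of the 10 loci and 0 of their 14 accessions occur in it, so no laccase number was assigned. Probe letters are not in the files used here, so cross-hybridisation between related laccases was not examined. Replicate numbers shared between genotypes were not taken as pairs in the main fit, and a check is given in the closing section. Slide could not be a block, since each holds 1 genotype. The planned normexp used the median spot signal with an offset of 50 and was followed by quantile normalisation. Alternatives covered scaling, background correction, filters, outlier spots, array weights, a block on replicate number, an intensity trend in limma, the mean of a locus's probes, and leaving out each array.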

Additional observations from a re-analysis of the deposited data

Results flagged for a closer look

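Signals on single knockout arrays, with none well above background in wild-type, occurred at 2 probes too dim to be tested. The 5′ probe of osa-miR408 was well above background in knockout replicate 3, at -7.21 relative to the 75th percentile, although wild-type replicates 1 and 2 read -6.99 and -7.17 without reaching that status. The probe of Os12g0108000, listed as a laccase locus, was well above background in knockout replicate 3 at -7.28, while wild-type replicate 3 read -7.42. Both lie at the edge of detection.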

How the results depend on the processing

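Over 16 alternatives the number of laccase loci called stayed at 0, except without knockout replicate 3, where it was 1 (range 0 to 1 when single arrays were left out). The further laccase loci stayed at 0 throughout. The median difference of the tested laccases ran from -0.80 to -0.03. Sign changes occurred without knockout replicate 1; with single arrays left out, Os01g0842400 ran from -0.58 to 0.20, Os03g0273200 from -0.95 to 0.13 and the Mature probe of osa-miR528 from -0.46 to 0.040, and the cause was not tested. Os01g0842500 was below 0 under all 16 alternatives and Os11g0708100 too, the latter from -0.64 to -0.20. The count of monolignol loci called, 1, became 0 after normexp with quantile normalisation and with a replicate block, and 0 to 1 when single arrays were left out. Of all 32134 tested probes 1016 were called, 645 without a filter on dim probes (more probes tested), 458 with a replicate block, and 143 to 1539 when single arrays were left out (156, 220 and 143 without wild-type replicates 1 to 3, 1539 and 249 without knockout replicates 1 and 2). Deviations of same-numbered arrays correlated at 0.41, -0.17 and 0.16. Deviations centred on 3 arrays per genotype cannot settle whether the numbers paired them, so the block was kept as an alternative. With the replicate block Os01g0842500 had an adjusted p of 0.0678, and no laccase call changed. The split of calls was 600 higher to 416 lower, and 454 to 492 after normexp with quantile normalisation. Signal over background limits the 6 dim laccases and the miR397 probes.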
